A study of Mus musculus with 32 samples.

Results

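Parathyroid cells grown from mouse embryonic stem cells (ESC) and then grafted were set against native parathyroid cells of control mice. Of the 32 RNA-seq libraries in the series, 12 belong to this comparison, chosen by their titles. They are 4 libraries of grafted ESC-derived cells and 8 libraries of control cells, 4 each in control experiments 1 and 2. A library is a pool of 10 to 20 cells chosen under the microscope by their red fluorescence. The grafted cells derive from Pth-tdTomato mouse ESCs that complemented Gcm2-/- animals of BDF1B6 background, and their label gives male sex and an age of 12 weeks. Control cells came from C57BL/6 mice heterozygous for a P2A-tdTomato insertion at Pth, labelled male and 8 weeks old in experiment 1 and female and 11 weeks old in experiment 2. The other 20 libraries hold ungrafted ESC-derived cells of the same complementation, 16 from Gcm2-/- mouse hosts at 9 weeks in 4 experiments and 4 from a neonatal Gcm2-/- Wistar rat host. Mouse-host libraries were labelled female in experiments 1 to 3 and male in experiment 4. The 20 ungrafted libraries enter the fit and serve as a second set of values beside named genes.

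The Pth-tdTomato reporter is carried by the cells of all these groups, and picking on it selects cells with an active Pth gene. In a host without Gcm2 the gland does not form, so parathyroid cells of complemented animals come from the donor ESC. The sources used here do not give the recipient of the graft, its site, the time since grafting or whom the sex label describes. Grafting, age and the strain given differ between the graft and both control experiments and are constant within each, so they cannot be told apart. For the graft, the strain given is that of the complemented animals, not of the donor ESC, and the graft is 1 experiment. Its sex label is that of control experiment 1 and differs from that of control experiment 2. In these bulk pools, fewer cells of a type and less RNA per cell cannot be told apart either.

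Parathyroid chief cells sense extracellular calcium through the calcium-sensing receptor, a G protein-coupled receptor that restrains hormone release when calcium is high. Low calcium releases parathyroid hormone, which acts on bone and kidney, and vitamin D and FGF23 with its co-receptor Klotho act back on the gland. The hormone is made as a precursor, moved into the endoplasmic reticulum (ER) by its signal peptide and packed into granules with chromogranin A, so a large part of the cell's machinery serves secretion.

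Levels are given as CPM, the reads of a gene scaled to the library size adjusted by the TMM method. Depth was 11578193 to 14072323 reads per graft library, 29471254 to 32264864 in control experiment 1 and 10742058 to 13731015 in control experiment 2. After every library was thinned to 9000000 reads, the graft libraries held 11268 to 12082 genes with at least 1 read and the control libraries 12137 to 13224, with no overlap. Mouse-host libraries held 11558 to 13064 genes at the same depth, so the graft range overlaps theirs. The 4 graft libraries, labelled male, had 0 reads of the Y-linked genes Ddx3y and Eif2s3y. Control experiment 1, labelled male, had 1891 to 2802, and control experiment 2, labelled female, had 0. The ungrafted ESC-derived libraries of mouse and rat hosts had 0 to 1 such reads. Mouse-host experiment 4, also labelled male, was among them, so the graft is not alone in this. Y-linked genes were left out of all comparisons.

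**Figure D1:**
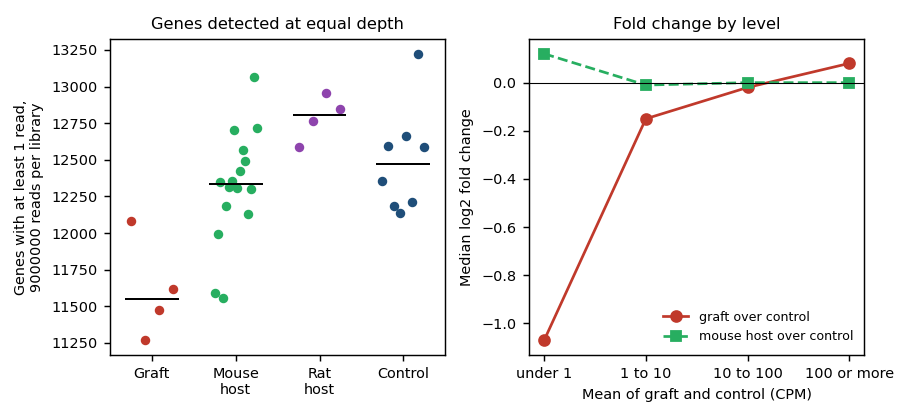
Left, genes with at least 1 read in each library after thinning to 9000000 reads, with a point for each library of the graft, mouse-host, rat-host and control arms and a line at the median; the graft median of 11548 lies below the control median of 12472. Right, median log2 fold change over control by mean level in CPM, for the graft (circles) and the mouse host (squares); the graft median is -1.07 for genes under 1 CPM and 0.08 for genes at 100 CPM or more.

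The defining genes of the parathyroid cell were present in every graft library. Pth, which encodes the hormone, had 88990, 104100, 112500 and 123900 CPM in the graft libraries, against a lowest of 78630, a median of 98870 and a highest of 116100 CPM in the 8 control libraries. Chga, which encodes chromogranin A, had 194800, 151400, 230100 and 240000 CPM in the graft libraries, against 194900, 216100 and 246900 CPM as the lowest, median and highest of the controls. Gcm2, a transcription factor gene without which no gland forms, had 503, 613, 514 and 600.3 CPM in the graft libraries, against 496, 633 and 880.3 CPM in the controls. The groups overlapped for all 3 genes, and the log2 fold changes, graft over control, were 0.11 ± 0.15 for Pth, -0.10 ± 0.10 for Chga and -0.22 ± 0.35 for Gcm2 (SE, edgeR quasi-likelihood test on sums per experiment, adjusted p = 0.859, 0.785 and 0.905). A p above the threshold does not show that the levels are equal.

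Of the 19 parathyroid genes tested, 1 lay below every control (Casr) and 1 above (Ap2s1), and neither passed that test. Of all genes tested, 1.12% lay below and 0.72% above every control. Casr, the calcium-sensing receptor gene, had 507, 368, 442 and 346 CPM in the graft libraries, against 560.5, 616 and 808 CPM as the lowest, median and highest control, so all 4 graft libraries were below all 8 controls (log2 fold change -0.65 ± 0.28, adjusted p = 0.564). Ap2s1, which encodes the adaptor subunit that takes part in endocytosis of the receptor, had 182, 176, 208 and 242 CPM in the graft libraries, against 73.5, 108 and 134 CPM in the controls. All 4 graft libraries were above every control, at a log2 fold change of 0.91 ± 0.27 (adjusted p = 0.357), and with single libraries as the units the gene was called higher (adjusted p = 0.019). Gna11, a G protein subunit gene downstream of the receptor, had 93.7 CPM in graft library 1 and 16.4, 24.8 and 28 CPM in the other 3, against 40.6 to 93.1 CPM in the controls. Without graft library 1 its log2 fold change was -1.69, against -0.84 with it, and neither value passed the test (adjusted p = 0.173 and 0.645, and 0.173 to 0.789 over all alternatives). Its relative Gnaq had 6.72 to 21.4 CPM in the graft and 7.39 to 16 CPM in the controls.

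Hormone feedback genes overlapped between the groups. Kl, the Klotho gene, had 1001, 754, 1057 and 894 CPM in the graft libraries, against 899, 1321 and 1456 CPM as the lowest, median and highest control (log2 fold change -0.46 ± 0.27, adjusted p = 0.693). Vdr, the vitamin D receptor gene, had 397 to 486 CPM in the graft and 416 to 726 CPM in the controls. Fgfr1, which encodes an FGF23 receptor, had 10.9 to 25.6 CPM in the graft and 1.54 to 25.6 CPM in the controls. Cyp24a1 and Cyp27b1, which break down and activate vitamin D, had no read in the graft and 2 and 22 reads over the controls.

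Among the pharyngeal transcription factors that build the gland, Gata3 had 257 to 486 CPM in the graft and 322 to 539.6 CPM in the controls. The ranges of Eya1 (21.8 to 71.8 CPM in the graft, 26.9 to 88.5 CPM in the controls), Tbx1 (12.5 to 118 and 11.6 to 102 CPM), Pax1 (9.76 to 55.2 and 19.4 to 35.0 CPM) and Pax9 (139 to 225 and 151 to 276 CPM) overlapped too, and Hoxa3 was under 5 CPM in every library of both groups. None of the 19 tested members of the 20-gene parathyroid list passed the test. The list had 7 positive and 12 negative fold changes with a median of -0.10, beside a median of -0.05 over all genes tested.

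**Figure D2:**
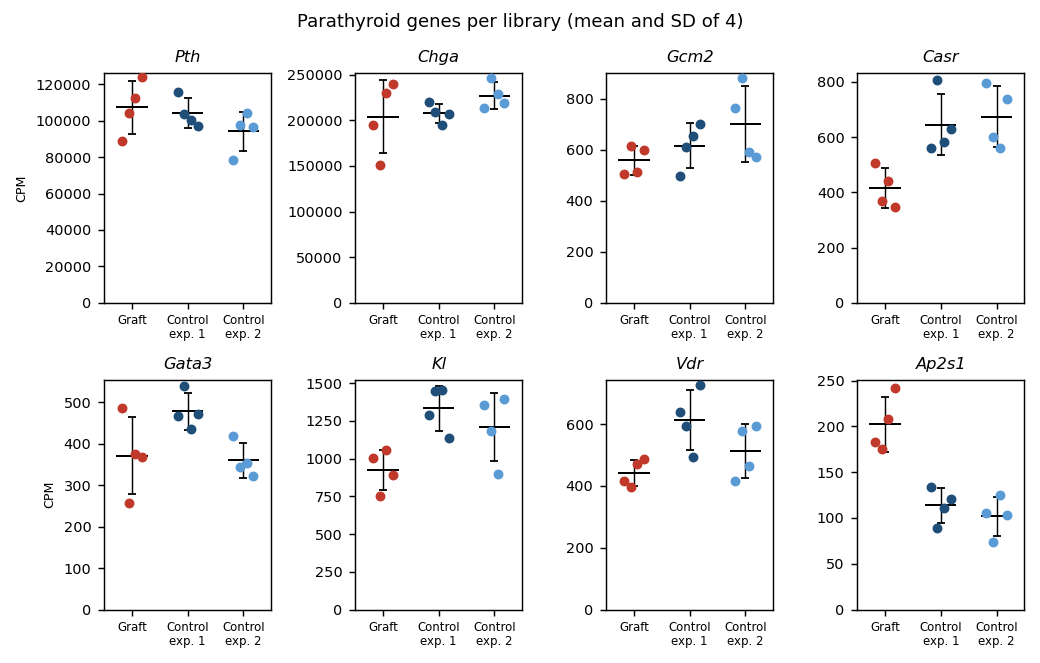
Level in CPM of 8 parathyroid genes in each library, for the graft (red) and control experiments 1 and 2 (blue), with the mean and SD of 4 libraries. Pth, Chga, Gcm2, Gata3, Kl and Vdr overlap between graft and control, Casr lies below all controls in the graft (346 to 507 against 560.5 to 808 CPM) and Ap2s1 above (176 to 242 against 73.5 to 134 CPM).

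With the experiment as the unit, the number of genes called between graft and control depended on the tool. Of 15686 genes tested, 0 were called higher in the graft (0.0%) and 6 lower (0.0383%) at an adjusted p under 0.05 by edgeR. At an unadjusted p under 0.05 there were 1383 genes, or 8.82%, and the smallest adjusted p of a gene with a positive fold change was 0.0786. In data simulated on the same 8 experiments, this test called 1.33% of genes changed 2-fold, 14.7% of those changed 4-fold and 64% of those changed 16-fold, so changes of 4-fold or less mostly go uncalled here. DESeq2 on the same sums called 119 genes higher and 685 lower.

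With single libraries as the units, edgeR called 55 genes higher (0.419%) and 119 lower (0.907%) of 13127 tested. Libraries of 1 experiment share their source, so these p-values measure only the spread between libraries. Against control experiment 1 alone, in a fit of the 12 libraries, 11 genes were called higher (0.0932%) and 30 lower (0.254%) of 11803. Against control experiment 2 alone the counts were 10 higher (0.0847%) and 25 lower (0.212%). Between control experiments 1 and 2, 0 genes were called (0.0%) in the same fit, with 418 at an unadjusted p under 0.05. Genes called against each control experiment numbered 22, of which 3 were higher and 19 lower in the graft, and both comparisons share the graft libraries. All 4 graft libraries lay above all 8 controls for 113 genes (0.72%) and below them for 175 (1.12%).

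Genes of low level leaned towards the control side. Among 3561 genes averaging under 1 CPM the median log2 fold change was -1.07, with 26.7% positive, and among 3906 genes from 1 to 10 CPM it was -0.15. The median was -0.02 among 6672 genes from 10 to 100 CPM, and 0.08 among 1547 genes at 100 CPM or more. For the mouse host against the same controls the 4 medians were between -0.01 and 0.12. The graft arm holds 4 libraries and the mouse-host arm 16 of similar depth, so their fold changes at low level are not alike in precision. How far the number of libraries moves the median under 1 CPM was not tested.

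The 6 genes called lower lay on 6 chromosomes and had at most 6.81 CPM in any graft library. Fastkd5, on chromosome 2, which encodes a mitochondrial RNA-binding protein, had 0 reads in all 4 graft libraries, against a lowest of 6.29, a median of 21.3 and a highest of 45.4 CPM in the controls, at least 382-fold lower with a floor of 3 reads over the graft (adjusted p = 0.0198). The gene shares exon sequence with its neighbour Ubox5 on the same strand, where reads cannot be split with certainty. Ubox5 had 0, 8.38, 18.4 and 12.0 CPM in the graft libraries and 12.1 to 30.4 CPM in the controls. Their sum was at most 18.41 CPM in the graft and at least 18.42 CPM in the controls.

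Vps8, which encodes an endosomal tethering subunit, had 0.159, 0, 0.0921 and 1.75 CPM in the graft libraries, against 15.1, 31.1 and 47.9 CPM as the lowest, median and highest control (log2 fold change -6.05 ± 0.55, adjusted p = 0.0198). Amph, which encodes the endocytic protein amphiphysin, had 3 reads in all over the graft libraries, against 1.57, 12.8 and 18.9 CPM in the controls. It was 206-fold lower, with an exact 95% counting interval of 70.7 to 1001 (adjusted p = 0.0369). Ppfibp2, which encodes liprin beta 2, had 0, 1.23, 6.81 and 0.263 CPM in the graft, against 12.7, 29.5 and 58.5 CPM in the controls (log2 fold change -4.07 ± 0.41, adjusted p = 0.0248). These 4 genes did not overlap between graft and control.

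Orc5, a subunit of the replication origin recognition complex, had 1 read over the graft libraries, against 20.3 CPM as the control median, and it was 976-fold lower with an interval of 175 to 38550 (adjusted p = 0.0198). Uhrf1, which brings the maintenance methyltransferase to newly replicated DNA, had no read in the graft, against a control median of 11.5 and a highest of 57.4 CPM, at least 246-fold lower (adjusted p = 0.0198). Both overlapped with the controls, since control library 2 of experiment 2 had 0 reads of each. In mouse-host libraries, which come from the same kind of complementation without grafting, the lowest and the median levels were 3.38 and 18.6 CPM for Fastkd5, 6.57 and 28.4 for Vps8, 4.0 and 15.6 for Amph, 13.3 and 33.5 for Ppfibp2, and 4.59 and 14.3 for Orc5. Uhrf1 ranged from 0 to 44.6 CPM there. In the contrast of graft with mouse host, 3 genes were called higher (0.0191%) and 15 lower (0.0956%), these 6 among them. That contrast, given for Spink8 below too, comes from the same fit and the same graft libraries, so it is no independent support. For the mouse host against control, 0 genes were called (0.0%), with 688 at an unadjusted p under 0.05.

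The spread for these calls comes from the control and mouse-host experiments. Leaving out any single mouse-host experiment, or fitting graft and control alone, left 0 genes called, and leaving out control experiment 1 or 2 left 3 and 1 called lower. Leaving out a graft library raised the lower calls to between 25 and 44, with 28 without library 1, 44 without library 2, 32 without library 3 and 25 without library 4, while leaving out control library 3 of experiment 2 gave 10.

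**Figure D3:**
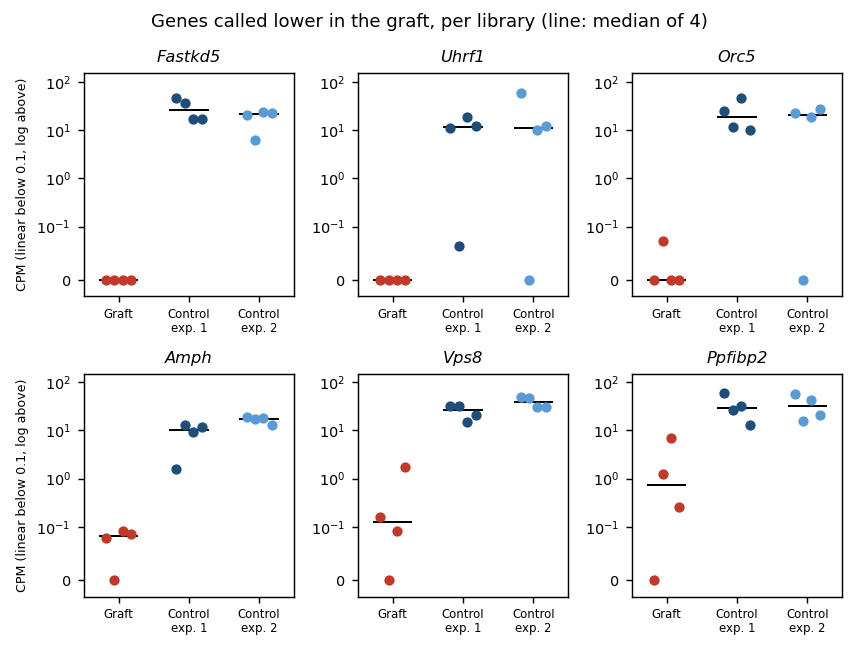
Level in CPM of the 6 genes called lower in the graft, with a point for each library of the graft (red) and control experiments 1 and 2 (blue) and a line at the median of 4, on an axis that is linear below 0.1 and logarithmic above. Graft values are at most 0.0921 CPM for Fastkd5, Uhrf1, Orc5 and Amph, at most 1.75 CPM for Vps8 and at most 6.81 CPM for Ppfibp2.

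Of the 19 genes called lower against each control experiment, 3 (Fastkd5, Vps8 and Amph) also passed the test over experiments. The 6 described next did not, and are those with the most negative fold changes among the others that have an established gene symbol and average at least 8 CPM in the controls. The 19 also include Nr1d1 and Dbp, given with the clock genes. Slc44a4, a choline transporter gene, had no read in the graft and 7.14 to 24.1 CPM in the controls, at least 216-fold lower. Klhl11 (a ubiquitin ligase adaptor) and Ccdc166 also had no read in the graft, against 0.384 to 22.1 and 2.12 to 22.8 CPM in the controls, at least 191-fold and 137-fold lower. Arsg, which encodes a lysosomal sulfatase, Specc1 and the ciliary gene Cfap52 had 1, 1 and 3 reads over the graft, against control medians of 11.5, 8.43 and 10.1 CPM. The adjusted p of the 6 genes in the fit over experiments was between 0.0591 and 0.38. Slc44a4, Klhl11, Ccdc166, Arsg and Specc1 were at 0 in at least 1 mouse-host library, and Cfap52 went down to 0.0986 CPM there.

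Of 10104 genes with a read in all 8 control libraries, 15 had no read in any of the 4 graft libraries. The same count was 7, 1, 0 and 2 in the 4 mouse-host experiments and 11 in the rat host. Besides Fastkd5, Slc44a4, Klhl11 and Ccdc166, the 15 include the receptor tyrosine kinase gene Axl, the Src-family kinase gene Fgr and the ubiquitin ligase gene Trim65, named here after their values were seen.

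Of the 3 genes called higher against each control experiment, Spink8 had the highest fold change. It encodes a Kazal-type serine protease inhibitor. Its level was 2817, 5102, 3285 and 3782 CPM in the graft libraries, against a lowest of 781, a median of 962 and a highest of 1112 CPM in the controls, with no overlap. The log2 fold change was 2.01 ± 0.27 with an adjusted p of 0.0786 over experiments, and it was called against control experiment 1 (adjusted p = 8.43e-05) and 2 (3.8e-05). Mouse-host libraries had 623 to 1466 CPM, and against them the graft was called higher (log2 fold change 1.87, adjusted p = 0.0449). Leaving out graft library 1, 3 or 4 made Spink8 a called gene against control, at an adjusted p of 0.0354, 0.0375 and 0.0466, within a range of 3.7e-11 to 0.404 over all alternatives.

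Pla2g7 and Spcs1 were the other two. Pla2g7, which encodes the lipoprotein-associated phospholipase that breaks down platelet-activating factor, had 6443, 7703, 8470 and 10260 CPM in the graft libraries, against 3669, 4063 and 6013 CPM as the lowest, median and highest control. Neither it nor Spcs1, a signal peptidase gene whose values are given with its complex, passed the test over experiments (adjusted p = 0.407 and 0.245).

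Tissue kallikreins, serine proteases encoded by a cluster of near-identical genes on chromosome 7, are given here after their values were seen. Klk1b26 had 171, 645, 612 and 1108 CPM in the graft libraries, against 60.7, 110 and 208 CPM as the lowest, median and highest control. Klk1b9 had 126, 914, 457 and 523 CPM, against 33.4, 69.0 and 194 CPM. Graft library 1 lay within the control range for both, the other 3 above it, and reads of such close copies are assigned with uncertainty. With single libraries as the units both were called higher (adjusted p = 0.0132 and 0.0322), but not over experiments (0.282 and 0.313). Nupr1, a stress-responsive chromatin protein gene also chosen after its values were seen, had 71.3, 95.2, 113 and 148 CPM in the graft, against 2.63 to 35.0 CPM in the controls and 0.0764 to 31.1 CPM in the mouse host (adjusted p = 0.368 over experiments and 0.0267 over libraries).

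**Figure D4:**
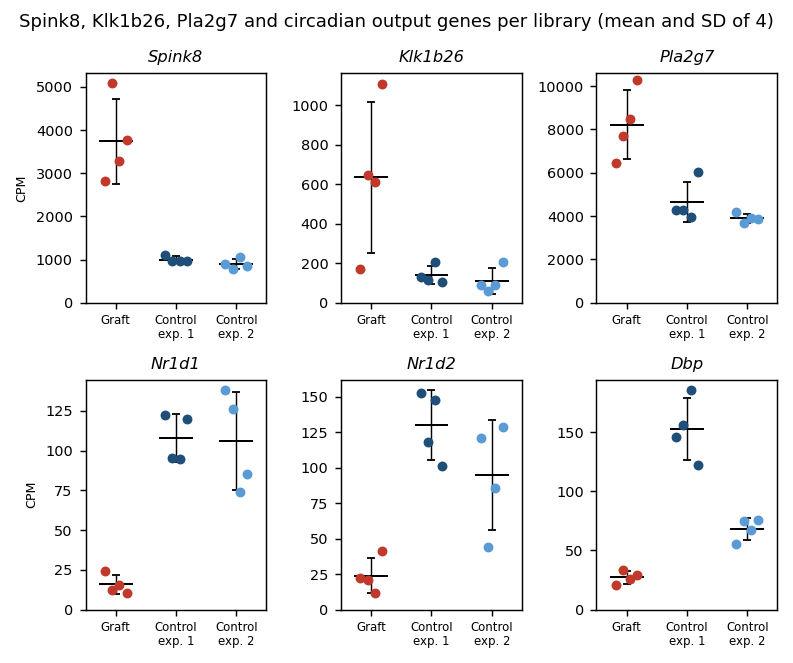
Level in CPM of Spink8, Klk1b26, Pla2g7 and 3 circadian clock genes in each library of the graft (red) and control experiments 1 and 2 (blue), with the mean and SD of 4 libraries. Spink8 has 2817 to 5102 CPM in the graft against 781 to 1112 CPM in the controls, and Nr1d1 has 10.6 to 24.5 against 74.0 to 138 CPM.

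Genes whose products fold secretory proteins had mostly positive fold changes in the graft, none of which passed the test over experiments. The ER answers a load of unfolded protein through ATF6, XBP1 and ATF4, which raise chaperones and folding enzymes; many of these carry the ER stress response element in their promoter. That element, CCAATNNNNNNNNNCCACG, was searched on both strands in the 250 bases before the start of each gene in RefSeq promoter windows of GRCm38.p6. It was found in 37 of 32851 windows (0.113%) and in those of 7 of the 23 listed folding genes that have an entry. The matches are printed on the strand of the gene, 5′ to 3′, with both ends of the element in capitals, because these are genes whose levels are then described; a match is a description of the sequence only.
Hspa5, chr2:34772005-34772063 (+): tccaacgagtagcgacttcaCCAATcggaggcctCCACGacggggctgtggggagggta
Hsp90b1, chr10:86705513-86705571 (-): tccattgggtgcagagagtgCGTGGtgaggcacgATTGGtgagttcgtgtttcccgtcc
Hsp90b1, chr10:86705618-86705676 (-): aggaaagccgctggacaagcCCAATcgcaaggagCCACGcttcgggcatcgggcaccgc
Pdia6, chr12:17266471-17266529 (+): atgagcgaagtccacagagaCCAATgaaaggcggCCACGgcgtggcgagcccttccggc
Calr, chr8:84847055-84847113 (-): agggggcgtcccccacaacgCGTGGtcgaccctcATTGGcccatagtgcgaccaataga
Canx, chr11:50325780-50325838 (-): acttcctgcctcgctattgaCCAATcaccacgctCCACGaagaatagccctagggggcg
Creld2, chr15:88819500-88819558 (+): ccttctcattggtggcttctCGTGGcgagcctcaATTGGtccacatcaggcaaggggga
Dnajc3, chr14:118937807-118937865 (+): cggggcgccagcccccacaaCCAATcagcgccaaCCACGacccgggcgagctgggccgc

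Hspa5, which encodes the main ER chaperone BiP and carries the element 46 bases before its start, had 2219, 2879, 2079 and 2133 CPM in the graft libraries, against 1402, 1616 and 1999 CPM as the lowest, median and highest control. Manf, a secreted ER stress factor, had 204, 214, 202 and 213 CPM, against 46.0, 104 and 134 CPM. Sdf2l1, a BiP-associated protein gene, had 156, 299, 199 and 157 CPM, against 66.6, 106 and 141 CPM. They were the 3 of 24 listed genes tested that lay above every control, where 0.72% of all genes tested lay. Their log2 fold changes were 0.54 ± 0.15, 1.07 ± 0.20 and 1.01 ± 0.22, with an adjusted p of 0.32, 0.175 and 0.213 over experiments and 0.00929, 0.00411 and 0.00411 over single libraries.

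Of Hspa5, Manf and Sdf2l1, only Hspa5 had a match to the element, and Manf had no promoter entry. The other 6 genes with the element overlapped with the controls and were not called in either fit. Their log2 fold changes were 0.49 for Hsp90b1 (the ER Hsp90), 0.58 for the lectin chaperone gene Calr, 0.37 for its membrane-bound relative Canx, 0.44 for Creld2, 0.31 for the co-chaperone gene Dnajc3 and 0.22 for the disulfide isomerase gene Pdia6. Xbp1, the transcription factor gene itself, had 255 to 398 CPM in the graft and 164 to 260 CPM in the controls, with 0.51 as its log2 fold change (adjusted p = 0.489). Hyou1, a large ER chaperone gene, had the opposite sign, with 1.66 to 30.2 CPM in the graft and 11.4 to 42.6 CPM in the controls.

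Across the list of 24 unfolded protein response and chaperone genes tested, 0 were called over experiments and 3 over single libraries, where 0.419% of all genes were called higher. The sign was positive for 21 and negative for 2, with a median log2 fold change of 0.41 beside -0.05 over all genes. Among the 21 members averaging at least 10 CPM the median was 0.44, beside medians of -0.02 over all genes from 10 to 100 CPM and 0.08 over those at 100 CPM or more. Their summed level was 8216, 10470, 8378 and 8443 CPM in the graft libraries, against 5887, 6390 and 7503 CPM as the lowest, median and highest control, with no overlap. Without Hspa5 the sums were 5997 to 7592 CPM in the graft and 4485 to 5648 CPM in the controls. The mouse host had 5067 to 7562 CPM with Hspa5, and its median log2 fold change against the same controls was -0.08.

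The machinery that takes the signal peptide through the ER membrane and cuts it off also had mostly positive fold changes. Signal peptidase is built from catalytic Sec11 subunits with Spcs1, Spcs2 and Spcs3. Spcs1 had 624, 775, 709 and 619.8 CPM in the graft libraries, against 333, 406 and 485 CPM as the lowest, median and highest control, with no overlap. Spcs2 had 487, 649.8, 611 and 656 CPM, against 303, 398 and 455 CPM, also without overlap. The catalytic Sec11a had 145, 214, 156 and 91.0 CPM, against 43.5, 88.4 and 102 CPM, and overlapped in graft library 4. Spcs3 had 36.2 to 62.9 CPM in the graft and 35.5 to 90.9 CPM in the controls.

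Ssr4, a subunit of the translocon-associated complex, had 588, 709, 841 and 1019 CPM in the graft libraries, against 400, 495 and 585.5 CPM in the controls. Srp9, part of the signal recognition particle, had 124, 206, 163 and 136 CPM, against 58.8, 102 and 126 CPM. With single libraries as the units, Spcs1, Spcs2, Sec11a, Ssr4 and Srp9 were called higher (adjusted p = 0.0028, 0.0231, 0.0353, 0.00411 and 0.0274), and over experiments none of the 22 listed genes was. The median of the list was 0.27, with 16 positive, 6 negative and 3 above every control, where 0.72% of all genes tested lay. Its summed level was 4369 to 5420 CPM in the graft and 3494 to 4279 CPM in the controls, and without Ssr4 3781 to 4711 and 3053 to 3751 CPM. None of the 16 listed genes with a promoter entry held the ER stress response element. Mydgf, which encodes a secreted growth factor and was chosen after its values were seen, had 123 to 200 CPM in the graft and 56.0 to 104 CPM in the controls (adjusted p = 0.338 over experiments and 0.00969 over libraries).

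**Figure D5:**
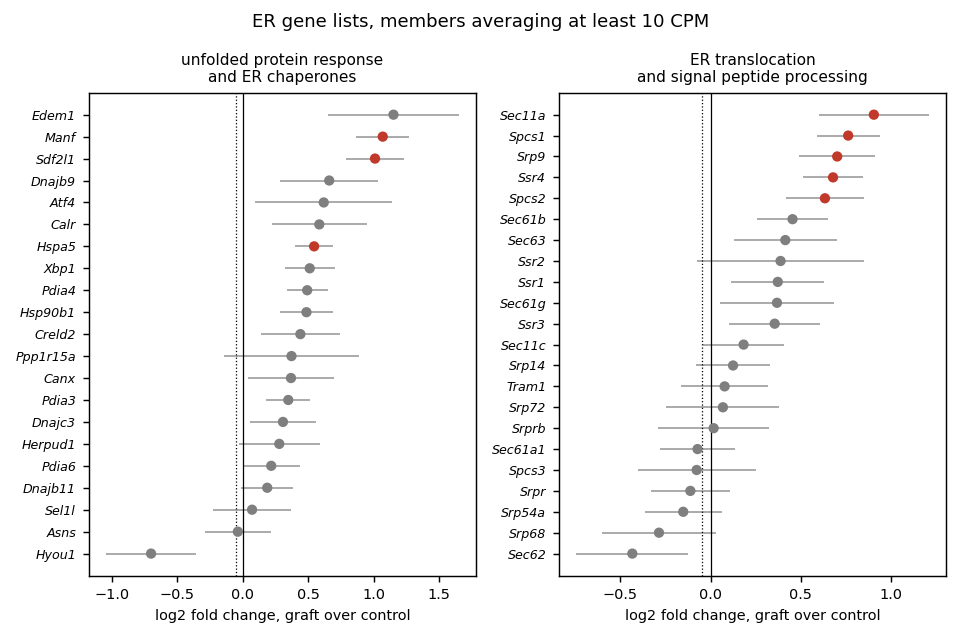
Log2 fold change, graft over control, of the members averaging at least 10 CPM of both ER lists, 21 and 22 genes, as points with their SE; red points were called higher with single libraries as the units, grey points were not, and the dotted line is the median of -0.05 over all genes. Of these, 19 and 16 genes lie to the right of 0, and no point was called over experiments.

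Of the clock genes tested, 3 lay below every control library in the graft, where 1.12% of all genes tested lay. None of the 3 passed the test over experiments. The circadian loop runs on the activators CLOCK and BMAL1, which drive the repressors Nr1d1 and Nr1d2 (REV-ERB alpha and beta) and the output factor Dbp. Nr1d1 had 24.5, 12.6, 15.4 and 10.6 CPM in the graft libraries, against a lowest of 74.0, a median of 107 and a highest of 138 CPM in the controls. Nr1d2 had 22.3, 21, 11.3 and 41.1 CPM, against 44.3, 119.5 and 153 CPM, and Dbp had 20.8, 33.8, 25.7 and 29.2 CPM, against 55.2, 98.8 and 186 CPM. No library of the graft reached the lowest control for any of the 3. The log2 fold changes were -2.74 ± 0.37, -2.21 ± 0.34 and -2.0 ± 0.66, with an adjusted p of 0.0786, 0.111 and 0.419 over experiments and of 0.000221, 0.000238 and 0.00937 over single libraries.

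Leaving out graft library 1, 2 or 3 gave Nr1d1 an adjusted p of 0.0354, 0.0401 and 0.0404, within a range of 1.2e-11 to 0.404 over all alternatives. Arntl, the BMAL1 gene, had 0, 0, 11.3 and 4.99 CPM in the graft and 0.41 to 52.2 CPM in the controls, and overlapped (adjusted p = 0.55). Of the 18 clock genes tested, 0 were called over experiments and 3 over libraries, where 0.907% of all genes were called lower. The median of the list was -0.47, with 5 positive and 12 negative, and its summed level was 167 to 364 CPM in the graft, against 440 to 781 CPM in the controls. Mouse-host libraries had 320 to 701 CPM in sum and 37.5 to 126 CPM of Nr1d1. The ungrafted rat-host libraries had 265 to 297 CPM in sum, within the graft range and below every control. Dbp also lay apart between the control experiments, at 122 to 186 CPM in experiment 1 and 55.2 to 75.4 CPM in experiment 2. The hour of collection is not given in the sources used here.

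Respiratory chain genes had mostly positive fold changes of small size. All 13 mitochondrially encoded genes were positive, with a median log2 fold change of 0.35, but they come from 1 transcription system and are not independent. Their sum was 29930 to 39400 CPM in the graft and 21740 to 37110 CPM in the controls, which overlap, and 13880 to 44110 CPM in the mouse host. Of 34 nuclear genes of oxidative phosphorylation, 28 were positive with a median of 0.23 and 0 were called over experiments. Cox5a, a cytochrome oxidase subunit gene, had 340, 331, 319 and 362 CPM in the graft and 200 to 283 CPM in the controls (log2 fold change 0.48 ± 0.19, adjusted p = 0.513). Cycs, the cytochrome c gene, had 222, 233, 267 and 235 CPM in the graft and 137 to 197 CPM in the controls. Cox5a and Cycs were the 2 genes of the nuclear list above every control, where 0.72% of all genes tested lay. Ndufv2, a complex I subunit gene, overlapped at 327 to 478 CPM in the graft and 224 to 339 CPM in the controls. Cytosolic ribosomal protein genes ran the other way, with 9 of 35 positive and a median of -0.13, and 0 called. The mouse host against the same controls had a similar median of -0.16 for this list. Its medians were -0.02 for the nuclear and -0.55 for the mitochondrially encoded list. Of all genes at 100 CPM or more, 59.3% were positive in the graft, with a median of 0.08.

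Metallothioneins, which bind zinc and copper, were above every control. Mt1 had 146, 198, 115 and 218 CPM in the graft, against 26.5, 66.4 and 114 CPM as the lowest, median and highest control, and Mt2 had 54.5, 36.6, 32 and 38.2 CPM, against 0, 11.3 and 27.9 CPM. The adjusted p over experiments was 0.505 and 0.567, and over libraries 0.196 and 0.375. Of the 26 listed genes of oxidative stress and glutathione, 14 were positive and 12 negative, with a median of 0.03. In that list 2 genes lay above and 1 below every control, where 0.72% and 1.12% of all genes tested lay. Ldha, the lactate dehydrogenase gene, had 253 to 467 CPM in the graft and 178 to 285 CPM in the controls, while the glycolysis list had 5 of 16 positive.

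Among antigen presentation genes, H2-Ab1 lay below every control in the graft. H2-Ab1, which encodes an MHC class II beta chain, had 49.0, 10.6, 2.58 and 0.263 CPM in the graft libraries, against a lowest of 124, a median of 142 and a highest of 286 CPM in the controls, with no overlap. Its log2 fold change was -3.35 ± 1.15, with an adjusted p of 0.436 over experiments and 0.0346 over libraries, and mouse-host libraries had 10.6 to 202 CPM. With H2-Ab1, the 7 class II genes summed to 4.55 to 119 CPM in the graft and 148 to 320.5 CPM in the controls. The sum was 12.1 to 251 CPM in the mouse host and 51.3 to 68.1 CPM in the rat host, whose libraries were all below every control. Without H2-Ab1, the remaining 6 class II genes summed to 4.29 to 70.0 CPM in the graft and 22.1 to 79.6 CPM in the controls, which overlap. MHC class I presentation genes summed to 1498 to 2799 CPM in the graft and 1782 to 2189 CPM in the controls. Of the 30 interferon-stimulated genes, 13 were positive and 0 were called.

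Cell-cycle genes varied within both groups. Their sum was 391, 307, 133 and 123 CPM in the graft libraries, against 1248 CPM in control library 4 of experiment 1, 1245 CPM in control library 1 of experiment 2 and 123 to 248 CPM in the other 6 controls. The list's median log2 fold change was -1.70 with 7 of 28 positive, and 0 were called. Among the 9 members averaging at least 10 CPM the median was -0.43, with 3 positive. Ccnd1, the cyclin D1 gene and a driver of parathyroid adenoma in humans, had 7.01, 22.3, 13.1 and 0.175 CPM in the graft, against 25.2, 33.1 and 53.8 CPM in the controls, below all of them (adjusted p = 0.433). Of the 11 writers and erasers of DNA methylation, Uhrf1 alone was called, and the list's median was -0.11.

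The list of 8 regulators of Pth mRNA stability had 6 positive members and a median of 0.23, with 0 called over experiments. Of the GDNF co-receptor genes, Gfra4 had the highest level and overlapped, at 256 to 435 CPM in the graft and 173 to 419.6 CPM in the controls. Gfra2 and Gfra1 had negative fold changes, with 12.1 to 30.3 CPM in the graft against 32.5 to 76.0 CPM in the controls for Gfra2, and with no read of Gfra1 in the graft against 0 to 25.8 CPM. Both were called only over libraries (adjusted p = 0.033 and 0.034), and Gfra1 had no read in 1 control library.

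Lists for which no gene was called in either fit included granule proteins and prohormone processing (median -0.10), regulated exocytosis (-0.05), cholesterol synthesis (0.09), hypoxia response (-0.16), immediate early genes (-0.26), glucocorticoid targets (-0.21), potassium channels (-1.44), calcium channels (-0.62), imprinted genes (-0.44), sex steroid receptors and targets (-1.38), vascular signals (-0.80), parathyroid tumour genes (-0.22), cytosolic heat-shock chaperones (0.09), NF-kB targets (0.01), p53 targets (0.19), fetal genes (-0.14), clustered protocadherins (-0.36), Hox genes (0.35) and residual pluripotency genes (-0.38). The claudin and junction list had a median of -0.25, with 1 gene called lower over libraries. Potassium and calcium channel lists consist mainly of genes of low level, where the median of all genes was also below 0. Among members averaging at least 10 CPM, the median was -0.13 for 3 potassium and 0.07 for 12 calcium channel genes. It was 0.13 for 4 sex steroid genes, -0.34 for 12 imprinted genes and -0.80 for 5 vascular signal genes. Pluripotency markers Pou5f1, Sox2 and Zfp42 had no read in any graft or control library.

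Summed markers of some other cell types were near 0 in most pools. Others were not, such as skeletal muscle at 0.239 to 44.9 CPM in the graft and 5.03 to 34.8 CPM in the controls. Some sums came mostly from 1 gene. Without Mpo, neutrophil markers were at most 0.368 CPM in the graft and 0.307 CPM in the controls. Without Lck, T cell markers were at most 0.0796 and 1.34 CPM. Summed endothelial markers were at most 0.723 CPM in the graft and 4.5 CPM in the controls, with Cdh5, Kdr and Esam at 0 in both groups. T cell markers reached 16.6 CPM in the graft and 15.9 in the controls, with Cd3e, Cd3d and Trac at 0 throughout. Thyroid follicular markers reached 3.03 and 4.5 CPM, with Slc5a5 and Pax8 at 0 in both groups. Fibroblast markers summed to 418, 0.506, 23 and 85.6 CPM in the graft libraries, against at most 29.6 CPM in 7 control libraries and 3333 CPM in control library 3 of experiment 2. Macrophage markers reached 29.5 CPM in the graft and 68.5 CPM in the controls, with Adgre1 and Mrc1 at 0 in both groups, and their part in the class II difference was not tested. Thyroid C cell markers summed to 2.21 to 186 CPM in the graft and 16 to 60.02 CPM in the controls, and without Slc18a1 to 0 to 4.54 and 0 to 15.1 CPM. Lrp2, which parathyroid and kidney tubule cells both express, made up nearly all of the kidney tubule sum of 330 to 539 CPM in the graft and 335 to 781 CPM in the controls. B cell, erythroid, adipocyte and keratinocyte markers were at most 12.3 CPM in the graft and 3.62 CPM in the controls, and pericyte, neutrophil, muscle, nerve and thymic epithelial markers at most 64.1 and 72.2 CPM. No gene of these lists was called over experiments.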

How the data were processed

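The data are SMART-Seq HT libraries of 10 to 20 picked cells, 4 of grafted ESC-derived cells, 16 of mouse-host, 4 of rat-host and 8 of control cells. Per the submitters' processing notes, Salmon was the authors' quantifier and GRCm39 the build; its version and transcript annotation: not given in the sources used here. Each deposited table lists a transcript's expected count and its TPM, an abundance scaled for length and depth. Of 116747 transcripts, 115685 matched GENCODE M21, which describes GRCm38 and was used for gene names, types and exon overlaps only; the other 1062 held 0.493% of reads. Expected counts were summed per gene and rounded, and 723 Y-linked genes were left out, leaving 34735.

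Sums of the counts over the 4 libraries of an experiment, 8 in all, were fitted with 1 coefficient per arm in edgeR 4.0.16 under R 4.3.3 (quasi-likelihood test, TMM scaling, filterByExpr, Benjamini-Hochberg adjustment over all genes tested, threshold 0.05, 4 residual degrees of freedom). Sums were used because sex label, age and strain are constant within an experiment. The graft, with 1 experiment, is assumed to vary between experiments like the arms that repeat. CPM are TMM-scaled counts per library. Alternatives used single libraries, DESeq2 1.42.0, limma 3.58.1 on counts (voom) and on log2 of the deposited TPM with a pseudocount of 1 or 0.1, other scalings and filters, and left-out samples. The procedure was tested on simulated data. Pairs of graft or control libraries within an experiment differed by at least 61.6 times the sampling noise (chi-square per degree of freedom), so all were kept. The labels call libraries biological replicates without naming animals, so a p-value measures only how far these samples spread, which may be technical. Intervals and floors cover counting error only.

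The groups, lists and rule for naming genes were chosen with earlier results of these data known. The rule takes called genes without overlap that average at least 8 CPM in the higher group, up to 15 a direction, filled to 10 with genes called against each control experiment, then all parathyroid list members and up to 4 members of each other list with the smallest p, some of which are not reported here; 35 gene lists and 17 marker lists were examined.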

Additional observations from a re-analysis of the deposited data

Results flagged for a closer look

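In groups of 4 libraries, 1 library was singled out when its gap to the nearest other exceeded 0.829 of the group's range, Dixon's critical value, which chance passes in about 1 of 20 groups. Of 216 such groups examined, 21 were passed. Among graft libraries, Gna11 had 93.7 CPM in library 1, against 16.4 to 28 CPM in the others. Vps8 had 1.75 CPM in library 4, against 0 to 0.159. Amph had 0 CPM in library 2, against 0.0796 to 0.0921, Orc5 had 0.0723 CPM in library 2 where the others had 0, and Arsg and Specc1 each had 0.0875 CPM in library 4 where the others had 0. All of these but Gna11 and Vps8 rest on single reads. The summed level of unfolded protein response and ER chaperone genes was 10470 CPM in graft library 2, against 8216 to 8443 CPM in the other 3. Library 2 also had the lowest share of Chga reads of the graft, at 15% against 19.7% to 21.7%.

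Among libraries of control experiment 1, Ccdc166 had 22.8 CPM and Spink8 1112 CPM in library 1, and Klk1b9 had 194 CPM and fibroblast markers summed to 12.7 CPM in library 3. In library 4 of that experiment, Pla2g7 had 6013 CPM, Gfra1 10.5 CPM and Xbp1 164 CPM, ER chaperone genes summed to 7387 CPM and cell-cycle genes to 1248 CPM. Among libraries of control experiment 2, Pax9 had 276 CPM and cell-cycle genes summed to 1245 CPM in library 1. Fgfr1 had 24.4 CPM and fibroblast markers summed to 3333 CPM in library 3, and Klk1b9 had 90.6 CPM in library 4.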

How the results depend on the processing

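Counts of called genes depended on the unit and the samples in the fit. With 0 genes called higher and 6 lower over experiments, single libraries gave 55 and 119, single libraries with the replicate number as a block 39 and 86, limma voom with a random effect for the experiment 77 and 70, DESeq2 119 and 685, no filter on low counts 1 and 19, a stricter filter 1 and 13, and limma on TPM 154 and 28 with a pseudocount of 1 or 131 and 51 with 0.1. Single libraries of the graft against control experiment 1 gave 11 and 30, and against control experiment 2 10 and 25. The count of lower calls was 0 with graft and control alone and 0 without each mouse-host experiment, 3 without control experiment 1 and 1 without control experiment 2. Leaving out 1 library at a time gave 0 to 1 higher and 5 to 44 lower calls. The cause of these differences was not tested. Deviations of graft and control libraries with the same replicate number correlated at -0.051 to 0.043, so the numbers do not pair the samples. Other scalings moved the median of all genes by at most 0.03 on the log2 scale and kept 0 and 6. Over 64 named genes and 34 alternatives, 2176 values in all, 51 lost a call, 163 gained one and 30 changed sign, all 30 in genes that were not called. These were Chga without graft library 2 (0.02, with -0.19 to 0.02 over single left-out libraries), and Gata3 (0.06 and 0.05) without control experiment 1 or against control experiment 2 alone. Pax9 gave 0.03 without control experiment 1 and 0.01 without graft library 3 or control library 1 of experiment 2, with -0.18 as the lowest when 1 library was left out. Eya1 gave -0.09 with voom, -0.07 with TPM at either pseudocount, -0.08 without control experiment 2 and -0.03 against control experiment 1 alone, and with 1 library left out -0.16 to 0.31. Tbx1 gave 0.03 with single libraries, 0.02 with the replicate block, 0.25 without control experiment 1 and 0.32 against control experiment 2 alone, and with 1 library left out -0.85 to 0.30. Pax1 gave -0.10 with voom, -0.20 and -0.21 with TPM and -0.24 without graft library 4, with 0.38 as the highest when 1 library was left out. Depth limits what can be said of genes under about 1 CPM, where 10 to 20 cells were pooled.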
